A study of Mus musculus with 6 samples.

Results

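The 68 genes described here encode the machinery that starts RNA polymerase II transcription and the complexes that serve the small nuclear RNA genes in the mouse cerebellum. They were chosen by name, as protein-coding genes of GENCODE M21 whose symbols are those of Integrator subunits (Ints), subunits of the small nuclear RNA activating protein complex SNAPc (Snapc), the TATA-binding protein (Tbp) and genes named as TBP-associated factors (Taf), the general transcription factors TFIIA, TFIIB, TFIIE, TFIIF and TFIIH (Gtf2a, b, e, f and h) and RNA polymerase II subunits (Polr2a to Polr2m). All 68 were among the 53715 mouse genes counted. They fell into 14 Integrator genes, 5 SNAPc genes, 17 genes of TFIID, 4 of the RNA polymerase I factor SL1 (Taf1a to Taf1d), 3 other genes with a Taf name, 12 general factor genes and 13 RNA polymerase II genes.

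The study asked how a diet without manganese (Mn) changes gene expression in the cerebellum. RNA was taken from cerebella of 3 male wild-type C57BL/6 mice on the low-Mn diet (0 ppm Mn) and 3 on the normal-Mn diet (35 ppm Mn), each fed for 2 weeks, with 1 polyadenylated RNA library per mouse. The mice were bought at 4 weeks of age, whereas the sample labels call them adult. They carried no transgene or deletion. Library totals were 14548336 to 17124327 expected counts in low-Mn mice and 18446701 to 21277469 in normal-Mn mice, so that the low-Mn libraries were all shallower. Of the normal-Mn libraries, replicate 2 stood furthest from the others, and its counts departed from those of its partners by a chi-square of 7.60 and 6.74 for each degree of freedom, where the other pairs of either diet gave 3.63 to 4.0. Markers of cerebellar granule neurons and Purkinje neurons were present in all 6 libraries, with 4030 to 4110 and 8480 to 8860 summed CPM (counts scaled to a common library size) in low-Mn mice, against 3880 to 4200 and 8130 to 8690 in normal-Mn mice.

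RNA polymerase II is placed at promoters by the general transcription factors. TFIID, built from Tbp and its associated factors, recognizes the core promoter, TFIIA and TFIIB hold it there and bridge to the polymerase, TFIIF travels with the polymerase, and TFIIE and TFIIH complete the complex and open the DNA. SNAPc binds the proximal sequence element of small nuclear RNA genes, which make the RNA components of the spliceosome. Integrator joins RNA polymerase II soon after initiation, cuts the 3′ ends of small nuclear RNAs and enhancer RNAs, and ends transcription of polymerase paused near promoters of coding genes. All of these complexes are used in every tissue.

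Levels were compared between genes as CPM per kilobase of merged exons, and on this scale each of the 13 RNA polymerase II genes stood above each of the 4 SL1 genes. Polr2m, which encodes a subunit that competes with TFIIF for the polymerase, was the highest at 70.1 ± 0.948 CPM per kilobase in low-Mn mice and 72.9 ± 2.21 in normal-Mn mice (SD, n = 3 each). Polr2a, the catalytic largest subunit, stood at 13.8 ± 1.09 CPM per kilobase in low-Mn mice and 14.0 ± 0.497 in normal-Mn mice. Gtf2f1, the large TFIIF subunit, led the general factors with 30.9 ± 1.37 CPM per kilobase in low-Mn mice and 31.4 ± 1.13 in normal-Mn mice.

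Within Integrator the levels fell into a wide range. The scaffold subunit Ints1 had 11.7 ± 0.796 CPM per kilobase in low-Mn mice and 11.0 ± 0.202 in normal-Mn mice, next to Ints3 with 11.2 ± 0.785 and 10.5 ± 0.156, and these neighbours did not separate beyond their spread in low-Mn mice. Ints11, the endonuclease, had 10.4 ± 1.26 CPM per kilobase in low-Mn mice and 9.73 ± 0.242 in normal-Mn mice, whereas Ints9, the partner it pairs with in the cleavage module, was the lowest of the 14 at 1.70 ± 0.15 in low-Mn mice and 1.55 ± 0.187 in normal-Mn mice. Among paralogs of TFIID, Taf4 had 7.61 ± 0.234 CPM per kilobase in low-Mn mice and 6.58 ± 0.400 in normal-Mn mice, and Taf4b, known for its role in germ cells, had 0.778 ± 0.0105 and 0.672 ± 0.0396. Taf7l, a germ cell relative of Taf7, had between 0 and 5 counts in any library and was the only member not tested.

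**Figure D1:**
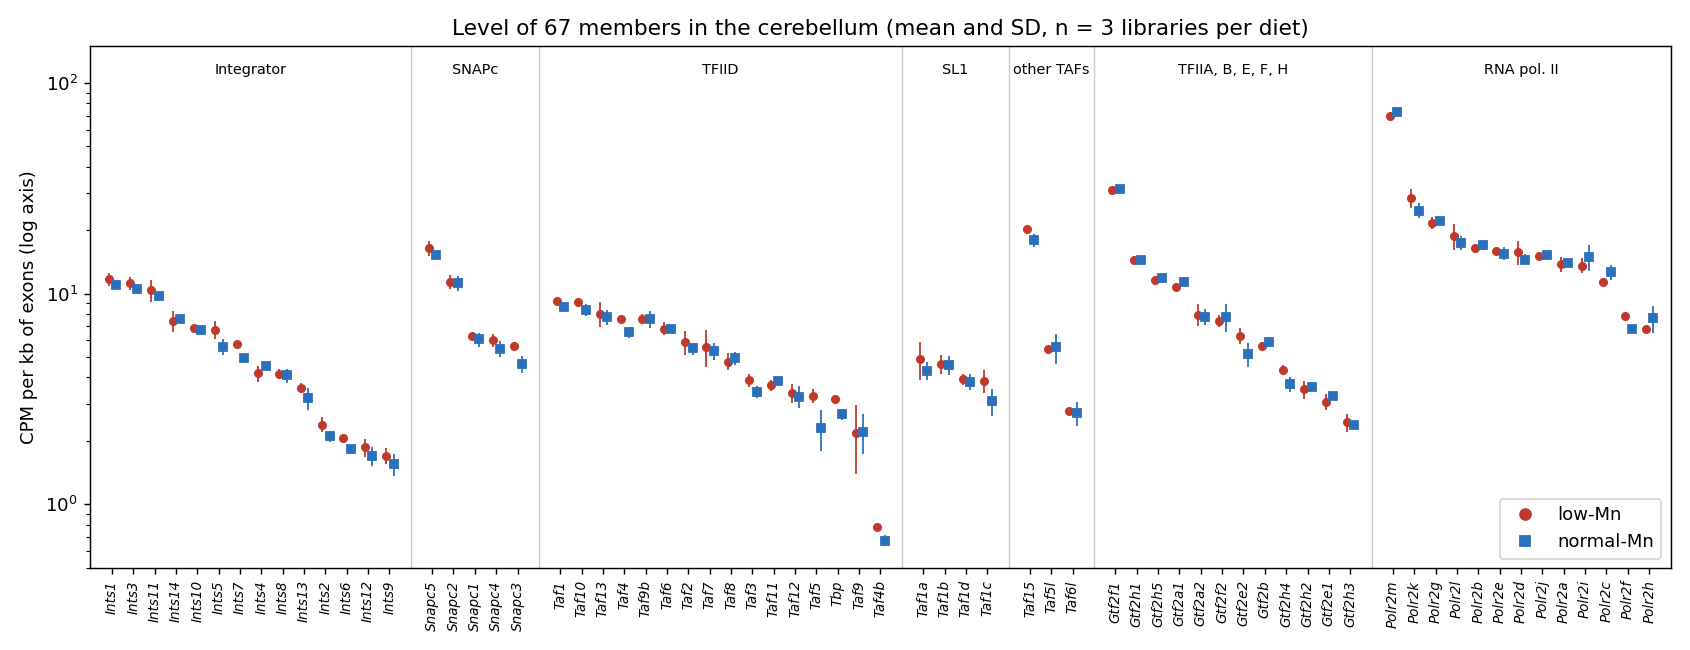
Mean level of the 67 tested members in CPM per kilobase of merged exons, on a log axis, in low-Mn (circles) and normal-Mn (squares) cerebella. Bars are SD over 3 libraries, and genes are ordered by level within each complex. Polr2m is highest and Taf4b lowest, and the diets lie close together for nearly all genes.

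Per-kilobase levels depend on the annotated exons. The merged exons of Tbp span 13576 bases, which lowers its level. For Taf9, 73.8% of the exon bases overlap other genes and 68.6% of its 50-base words occur elsewhere, mainly in Ak6, with which it shares a locus, so that its 2.17 ± 0.776 CPM per kilobase in low-Mn mice and 2.21 ± 0.481 in normal-Mn mice are uncertain. In all, 18 members overlapped another gene or shared sequence over at least 10% of their exons and 50 did not.

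None of the 67 tested members passed the test between the diets as the counts were filtered here. By edgeR's quasi-likelihood test with Benjamini-Hochberg adjustment over 16123 genes, 0 members had an adjusted p under 0.05, whereas 96 genes of all tested did, a background of 0.595% (0.416% higher and 0.18% lower in low-Mn mice). The smallest adjusted p among the members was 0.117, for Snapc3, and limma-voom also called 0 members (background 0.391%). DESeq2 called 0 members too, and 137 of the 26940 genes with a p-value (0.509%). Its independent filtering left some genes without an adjusted p, Taf5 and Gtf2h4 among them, so these could not be called. The share among genes with an adjusted p was therefore larger than 0.509%. Without independent filtering DESeq2 also called 0 members, with a smallest adjusted p of 0.388. Without the filter on low counts 2 members, Taf5 and Snapc3, passed as higher in low-Mn mice, with a background of 1.57%. At an unadjusted p under 0.05, 11 members were higher in low-Mn mice (16.4%, against a background of 6.54%) and 1 was lower (1.49%, against 5.58%). Without normal-Mn replicate 2, again 0 members passed (background 0.275%). At an unadjusted p under 0.05, 8 members were then higher and 0 lower, with a background of 9.19% for both directions together. A background by direction was not taken for this setting, so the 8 higher members have none to be set against.

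The differences were small and estimated closely. Log2 fold changes, given here as low-Mn over normal-Mn, ran from -0.17 (Polr2c) to 0.52 (Taf5), and 62 of 67 were under 0.25 in size. The 95% confidence interval lay within 1.5-fold in either direction for 64 of 67 members (95.5%), against 72.9% of all tested genes. The 3 members whose interval reached past 1.5-fold were Taf5 (0.20 to 0.85), Taf1c (0.05 to 0.61) and Taf4b (-0.22 to 0.64). The members' median standard error was 0.0893 on the log2 scale.

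The members leaned towards higher values in low-Mn mice. The log2 fold change was positive for 46 of 67 members (68.7%), against 49.2% of all genes tested, and its median was 0.05, against -0.0025 over all genes and -0.0039 over protein-coding genes. In 13 members every low-Mn library was above every normal-Mn library (19.4%, against a background of 8.79%), and in 1 every low-Mn library was below (background 8.32%). The median deviation of the members from the normal-Mn mean was 0.05, 0.06 and 0.06 in the low-Mn libraries and 0.01, -0.01 and -0.01 in the normal-Mn libraries. Genes are not independent of each other, and this lean was not tested here. The paper's gene set enrichment analysis listed the reactome "RNA polymerase II transcribes snRNA genes" among those upregulated in the Mn-deficient cerebellum. The genes of that set were not compared with these members. A change in the number of cells of a type and a change in RNA per cell cannot be told apart in these whole-tissue libraries.

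**Figure D2:**
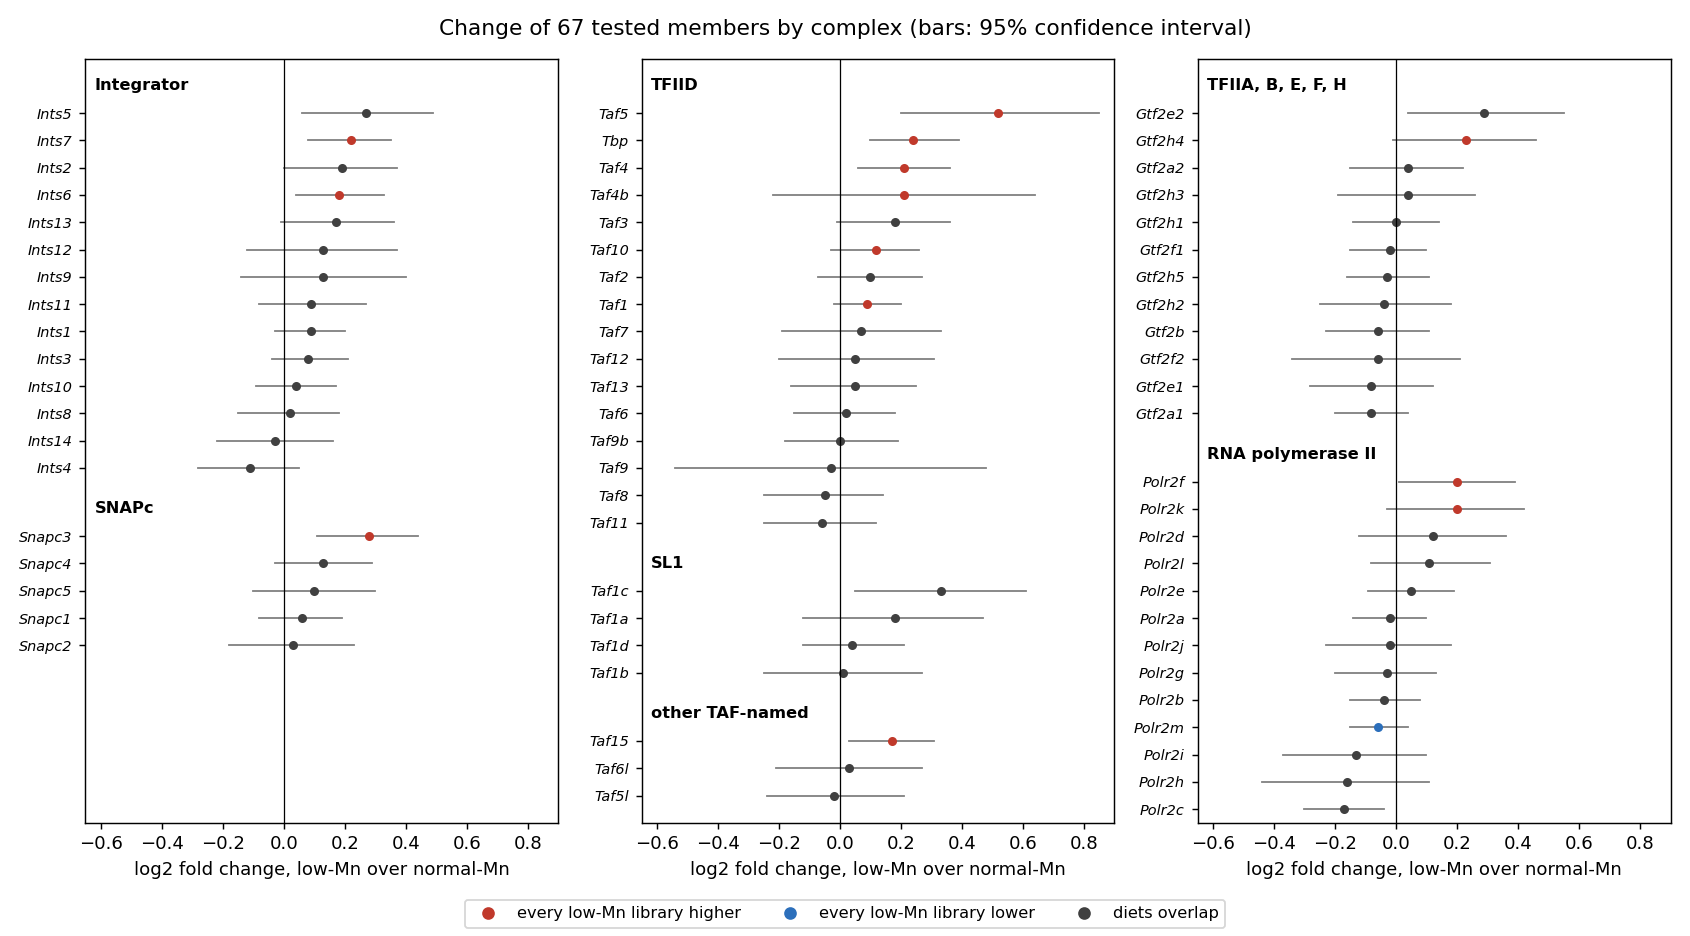
Log2 fold change (low-Mn relative to normal-Mn) of the 67 tested members by complex, with the 95% confidence interval from edgeR as a bar. Red points mark the 13 members with every low-Mn library higher, and the blue point marks Polr2m, with every low-Mn library lower. Most intervals include 0, and Taf5 has the largest value, 0.52.

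The median log2 fold change was 0.11 for Integrator (12 positive, 2 negative), 0.10 for SNAPc (5 positive, 0 negative), 0.08 for TFIID (13 positive, 3 negative) and 0.11 for SL1 (4 positive, 0 negative). It was 0.03 for the other Taf genes (2 positive, 1 negative), -0.02 for the general factors (5 positive, 7 negative) and -0.02 for RNA polymerase II (5 positive, 8 negative). The difference between complexes was not tested. For Integrator the library medians were 0.04, 0.10 and 0.15 in low-Mn mice, against 0.02, -0.03 and 0.00 in normal-Mn mice, so that the diets did not overlap but low-Mn replicate 1 lay close to the normal-Mn libraries. For TFIID they were 0.15, 0.08 and 0.11 in low-Mn mice, against 0.02, -0.02 and -0.06 in normal-Mn mice. For SNAPc they were 0.17, 0.06 and 0.06 in low-Mn mice, against -0.07, 0.05 and 0.05 in normal-Mn mice, a narrow gap. For SL1 they overlapped, with 0.14, 0.22 and 0.02 in low-Mn mice, against 0.04, -0.08 and 0.02 in normal-Mn mice. For RNA polymerase II they overlapped too, with -0.03, -0.01 and -0.07 in low-Mn mice, against -0.03, 0.05 and -0.02 in normal-Mn mice. The Integrator median depended on single libraries, being 0.15 without low-Mn replicate 1 and 0.05 without low-Mn replicate 2, and that of TFIID was 0.12 without either of these. Over the 6 libraries left out in turn, the SL1 median ran from 0.06 (without low-Mn replicate 2) to 0.17 (without low-Mn replicate 3 or normal-Mn replicate 1), and that of SNAPc from 0.06 (without normal-Mn replicate 1) to 0.15 (without low-Mn replicate 3).

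**Figure D3:**
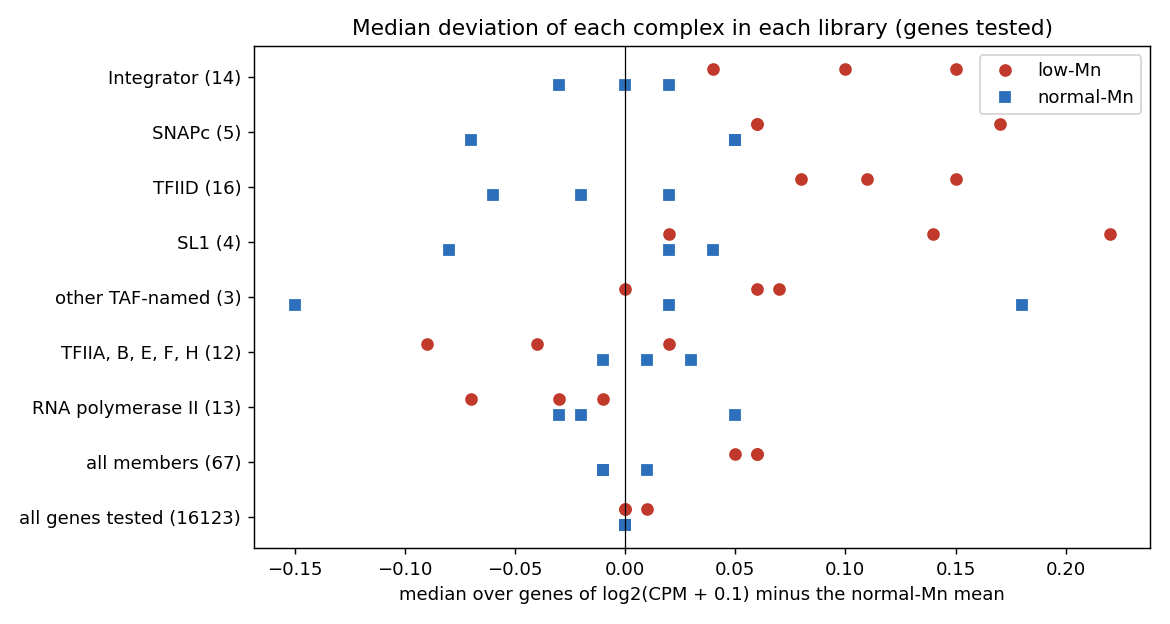
Median over the genes of each complex of log2(CPM + 0.1) minus the gene's normal-Mn mean, for each low-Mn library (circles, upper row) and normal-Mn library (squares, lower row). The number of tested genes is in parentheses. For Integrator, SNAPc and TFIID each low-Mn point lies to the right of each normal-Mn point, and for RNA polymerase II and the general factors the diets overlap.

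In Integrator, Ints7 had the smallest p. Ints7, a core subunit (chr1:191575636-191623688, plus strand, GRCm38), had 43.3, 42.1 and 41.6 CPM in low-Mn mice, against 37.3, 35.9 and 35.9 CPM in normal-Mn mice. Every low-Mn library was above every normal-Mn library, and both diets were tight. Its log2 fold change was 0.22 ± 0.0647 (SE; edgeR, Benjamini-Hochberg adjusted p = 0.144). Ints6, a subunit of the part of Integrator that holds a protein phosphatase, had 35.5, 34.4 and 34.3 CPM in low-Mn mice, against 31.2, 30.3 and 30.6 CPM in normal-Mn mice. These values were also apart between the diets, with a log2 fold change of 0.18 ± 0.0695 (edgeR, Benjamini-Hochberg adjusted p = 0.290).

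Ints5 differed by more but less evenly. It had 23.8, 19.5 and 23.0 CPM in low-Mn mice, against 16.7, 19.9 and 18.4 CPM in normal-Mn mice. Low-Mn replicate 2 lay within the normal-Mn range, and the log2 fold change was 0.27 ± 0.101 (edgeR, Benjamini-Hochberg adjusted p = 0.262). Of its exons, 14.3% overlap another gene, and 21.7% of its 50-base words occur elsewhere. The other 11 Integrator genes had log2 fold changes between -0.11 (Ints4) and 0.19 (Ints2) with overlapping diets. Ints4, which joins Ints9 and Ints11 in the cleavage module, had 29.4 ± 2.61 CPM in low-Mn mice and 31.8 ± 1.20 CPM in normal-Mn mice. The nuclease Ints11 and its partner Ints9 had log2 fold changes of 0.09 ± 0.0848 and 0.13 ± 0.129 (SE).

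All 5 SNAPc genes had a positive log2 fold change, from 0.03 (Snapc2) to 0.28 (Snapc3). Snapc3, which together with Snapc1 and Snapc4 makes up the DNA-binding core (chr4:83417724-83467676, plus strand, GRCm38), had 37.2, 40.1 and 36.6 CPM in low-Mn mice, against 29.7, 29.7 and 34.7 CPM in normal-Mn mice. The diets did not overlap, although normal-Mn replicate 3 came close to the low-Mn libraries. The log2 fold change was 0.28 ± 0.0776 (SE; edgeR, Benjamini-Hochberg adjusted p = 0.117), and the adjusted p ran from 0.0481 without the filter on low counts to 0.388 over the alternatives. Snapc3 overlaps Psip1 on the other strand over 7.1% of its exons, and Psip1 had 245 ± 4.76 CPM in low-Mn mice and 245 ± 5.36 CPM in normal-Mn mice.

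The other SNAPc genes overlapped between the diets. Snapc4, the subunit with the Myb-like repeats that contact DNA, had 40.7, 41.9 and 36.6 CPM in low-Mn mice, against 32.8, 38.6 and 37.3 CPM in normal-Mn mice, with a log2 fold change of 0.13 ± 0.0770 (edgeR, Benjamini-Hochberg adjusted p = 0.517). Snapc5, the smallest subunit, had 22.0, 19.6 and 18.9 CPM in low-Mn mice, against 17.8, 19.5 and 19.1 CPM in normal-Mn mice. Low-Mn replicate 3 lay within the normal-Mn range. Snapc1 and Snapc2 had log2 fold changes of 0.06 ± 0.0658 and 0.03 ± 0.0974 (SE).

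In TFIID, 6 of 16 tested genes were higher in every low-Mn library than in any normal-Mn library, namely Tbp, Taf5, Taf4, Taf10, Taf1 and Taf4b (37.5%, against 8.79% of all tested genes). Tbp (chr17:15499888-15528379, plus strand, GRCm38) had 44.6, 40.8 and 43.2 CPM in low-Mn mice, against 37.6, 33.8 and 37.2 CPM in normal-Mn mice. The lowest low-Mn library lay above the highest normal-Mn library, and the log2 fold change was 0.24 ± 0.0693 (edgeR, Benjamini-Hochberg adjusted p = 0.121). Tbp overlaps Pdcd2 on the opposite strand over 19.0% of its exons, and Pdcd2 had 14.4 ± 0.432 CPM in low-Mn mice and 14.0 ± 1.31 CPM in normal-Mn mice.

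Taf5, whose WD40 repeats form part of the TFIID scaffold (chr19:47067746-47083479, plus strand, GRCm38), had the largest value of all members. It had 9.76, 10.9 and 11.3 CPM in low-Mn mice, against 6.93, 6.14 and 9.32 CPM in normal-Mn mice. Normal-Mn replicate 3 was close to low-Mn replicate 1, and the gene was counted only 129 to 184 times per library. The log2 fold change was 0.52 ± 0.156, a 1.44-fold difference (edgeR, Benjamini-Hochberg adjusted p = 0.148), and over the alternatives it ran from 0.40 to 0.71 with an adjusted p from 0.0361 without the filter on low counts to 0.462.

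Taf4, which pairs with Taf12 through a histone fold, had 36.2, 35.2 and 34.0 CPM in low-Mn mice, against 32.3, 28.7 and 30.2 CPM in normal-Mn mice (log2 fold change 0.21 ± 0.0735; edgeR, Benjamini-Hochberg adjusted p = 0.234). Its paralog Taf4b had the same log2 fold change of 0.21 but a wide interval, with 4.01, 4.05 and 3.95 CPM in low-Mn mice, against 3.42, 3.28 and 3.69 CPM in normal-Mn mice. It was counted 59 to 73 times per library (edgeR, Benjamini-Hochberg adjusted p = 0.751). Taf10, a histone-fold subunit that TFIID shares with the coactivator SAGA, had 43.3, 41.4 and 40.6 CPM in low-Mn mice, against 39.8, 40.0 and 35.6 CPM in normal-Mn mice. Its log2 fold change was 0.12 ± 0.069 (edgeR, Benjamini-Hochberg adjusted p = 0.517), and overlapping genes cover 45.9% of its exons.

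Taf1, the largest TFIID subunit, had the smallest log2 fold change of these. It had 80.1, 78.6 and 78.4 CPM in low-Mn mice, against 74.0, 71.0 and 77.9 CPM in normal-Mn mice, with a log2 fold change of 0.09 ± 0.0537 (edgeR, Benjamini-Hochberg adjusted p = 0.528). The remaining tested TFIID genes overlapped between the diets, from -0.06 (Taf11) to 0.18 (Taf3). Taf9b, the paralog of Taf9, had 23.9 ± 1.31 CPM in low-Mn mice and 23.8 ± 2.18 CPM in normal-Mn mice.

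The SL1 genes, which with Tbp recruit RNA polymerase I to ribosomal RNA genes, had positive log2 fold changes with overlapping diets, and Taf1c had the largest. Taf1c had 13.3, 15.3 and 11.8 CPM in low-Mn mice, against 10.4, 9.38 and 12.5 CPM in normal-Mn mice. The diets overlapped through low-Mn replicate 3 and normal-Mn replicate 3, and the log2 fold change was 0.33 ± 0.133 (edgeR, Benjamini-Hochberg adjusted p = 0.317). Taf1a, Taf1d and Taf1b had log2 fold changes of 0.18 ± 0.143, 0.04 ± 0.0784 and 0.01 ± 0.124 (SE). Of the other Taf genes, Taf15, an RNA-binding protein of the FET family, had 61.6, 55.5 and 59.8 CPM in low-Mn mice, against 54.9, 48.1 and 54.3 CPM in normal-Mn mice. Its diets were apart by a small margin, with a log2 fold change of 0.17 ± 0.0653 (edgeR, Benjamini-Hochberg adjusted p = 0.284). Taf6l and Taf5l, which serve in SAGA in place of Taf6 and Taf5, had log2 fold changes of 0.03 and -0.02.

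None of the 12 general factor genes passed, and Gtf2e2 and Gtf2h4 had the largest log2 fold changes. Gtf2e2, the small TFIIE subunit, had 16.2, 14.7 and 13.6 CPM in low-Mn mice, against 13.8, 10.7 and 11.9 CPM in normal-Mn mice. The lowest low-Mn library lay just below the highest normal-Mn library, and the log2 fold change was 0.29 ± 0.121 (edgeR, Benjamini-Hochberg adjusted p = 0.323). Gtf2h4, a TFIIH core subunit, had 13.5, 15 and 14.6 CPM in low-Mn mice, against 12, 11.5 and 13.4 CPM in normal-Mn mice, apart by only a narrow gap between low-Mn replicate 1 and normal-Mn replicate 3 (log2 fold change 0.23 ± 0.112; edgeR, Benjamini-Hochberg adjusted p = 0.430).

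The partners of these subunits gave other values. Gtf2e1, the large TFIIE subunit, had 19.3 ± 1.78 CPM in low-Mn mice and 20.5 ± 0.687 CPM in normal-Mn mice. Gtf2a1, which encodes the large TFIIA subunits, had 67.9, 64.7 and 69.3 CPM in low-Mn mice, against 67.6, 73.1 and 73.2 CPM in normal-Mn mice (log2 fold change -0.08 ± 0.0563). Gtf2b, the single TFIIB gene, had 25.9 ± 1.23 CPM in low-Mn mice and 27 ± 1.51 CPM in normal-Mn mice. The other 4 TFIIH core genes lay between -0.04 (Gtf2h2) and 0.04 (Gtf2h3).

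The largest subunits of RNA polymerase II differed little between the diets. Polr2a had 97.6 ± 7.70 CPM in low-Mn mice and 99.1 ± 3.51 CPM in normal-Mn mice, and its 95% confidence interval was -0.14 to 0.10 on the log2 scale. Polr2b, the second largest subunit, had 77.1 ± 1.76 CPM in low-Mn mice and 79.2 ± 3.75 CPM in normal-Mn mice, with an interval of -0.15 to 0.08. Polr2f and Polr2k, small subunits that polymerases I and III also contain, were higher in every low-Mn library. Polr2f had 19.8, 20.7 and 20.7 CPM in low-Mn mice, against 17.9, 17.9 and 17.3 CPM in normal-Mn mice (log2 fold change 0.20 ± 0.0907; edgeR, Benjamini-Hochberg adjusted p = 0.365). Of its 50-base words, 10.1% occur in other genes. Polr2k had 16.8, 19.9 and 16.5 CPM in low-Mn mice, against 14.0, 15.9 and 16.4 CPM in normal-Mn mice, so that the diets nearly touched. Its log2 fold change was 0.20 ± 0.108 (edgeR, Benjamini-Hochberg adjusted p = 0.483), and 21.6% of its 50-base words occur in other genes. Polr2h, another shared subunit, had 10.2 ± 0.221 CPM in low-Mn mice and 11.5 ± 1.73 CPM in normal-Mn mice.

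The lowest log2 fold change was that of Polr2c, a subunit of the assembly platform (chr8:94857450-94873535, plus strand, GRCm38). It had 58.0, 61.7 and 58.6 CPM in low-Mn mice, against 60.8, 71.6 and 67.8 CPM in normal-Mn mice. Low-Mn replicate 2 and normal-Mn replicate 1 overlapped, and the log2 fold change was -0.17 ± 0.0633 (edgeR, Benjamini-Hochberg adjusted p = 0.278). Of its exons, 18.1% overlap Dok4, which had 10.3 ± 1.77 CPM in low-Mn mice and 9.20 ± 0.247 CPM in normal-Mn mice. Polr2m was the single member lower in every low-Mn library, with 168, 170 and 172 CPM in low-Mn mice, against 173, 183 and 174 CPM in normal-Mn mice, a log2 fold change of -0.06 ± 0.0446 (edgeR, Benjamini-Hochberg adjusted p = 0.672).

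**Figure D4:**
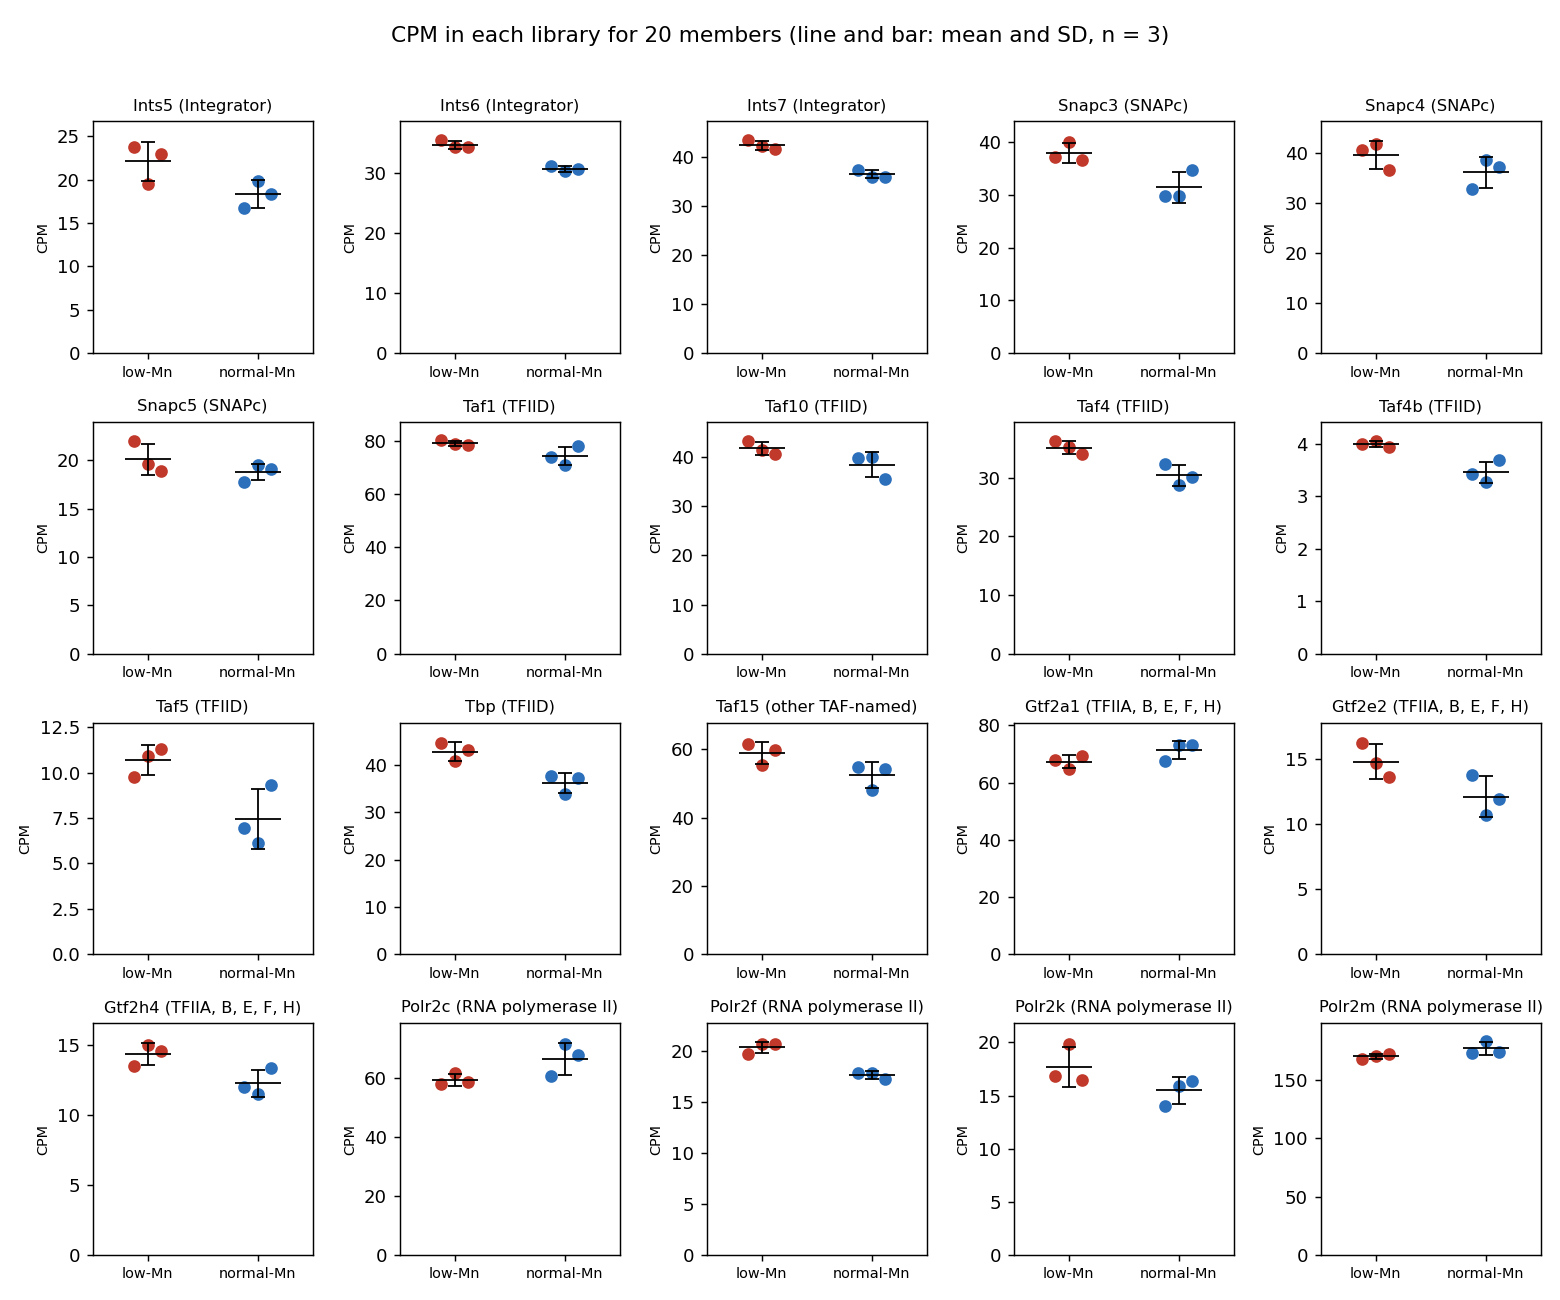
CPM of 20 members in each low-Mn library (left) and normal-Mn library (right), with the mean and SD over 3 libraries, on axes that start at 0. These are the members with the smallest p in the larger complexes and those whose diets do not overlap. Snapc3, Tbp, Ints7 and Taf5 show the low-Mn points above the normal-Mn points, and Polr2m shows them slightly below.

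The promoters of the members were examined as RefSeq gives them in GRCm38.p6, from 250 bases before to 50 bases after the start. Of the 68 members, 57 had an entry. Their median GC content was 60.0%, against 60.7% in promoters of tested genes. The letters of the ETS site CCGGAAG, on either strand, occurred in 19 of 57 member promoters (33.3%), against 16.7% of 11641 promoters of tested genes and 9.12% of all. The GC box GGGCGG occurred in 70.2% of member promoters, 63.0% of those of tested genes and 35.9% of all, CCAAT in 43.9%, 38.6% and 37.9%, and TATAAA in 15.8%, 7.04% and 14.2%. The letters AAGATGG of the YY1 site occurred in 14.0%, 6.85% and 6.48%, Taf4 and Taf5 among them, and the letters GCATGCG of the NRF1 site in 14.0%, 6.17% and 3.64%, with Ints2 and Ints3 among them. None of these motifs lies within another, and a match is a description of the letters. The difference in these shares was not tested.

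The sequences of 5 members are shown because they had the smallest p in SNAPc, TFIID, Integrator and RNA polymerase II, or, for Taf5, the largest log2 fold change. All 5 lie on the plus strand and run 5′ to 3′, and capitals mark the motifs above on either strand. Snapc3 (chr4:83417474-83417773) has an ETS site 8 bases past the start, and CCAAT and GC boxes upstream. Tbp (chr17:15499638-15499937) has a GC box. Ints7 (chr1:191575386-191575685) has an inverted CCAAT box. Taf5 (chr19:47067498-47067797) has a TATAAA match far upstream, a GC box and the YY1 letters just past the start. Polr2c (chr8:94857200-94857499), which had the lowest log2 fold change, has CCAAT boxes and a TATAAA match upstream, and an ETS site past the start.
Snapc3: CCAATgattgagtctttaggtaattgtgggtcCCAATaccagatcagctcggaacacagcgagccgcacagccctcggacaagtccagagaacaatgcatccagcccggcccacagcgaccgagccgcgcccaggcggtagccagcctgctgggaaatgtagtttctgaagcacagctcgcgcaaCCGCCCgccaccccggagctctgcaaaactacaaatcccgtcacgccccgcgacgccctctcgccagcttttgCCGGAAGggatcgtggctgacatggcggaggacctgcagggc
Tbp: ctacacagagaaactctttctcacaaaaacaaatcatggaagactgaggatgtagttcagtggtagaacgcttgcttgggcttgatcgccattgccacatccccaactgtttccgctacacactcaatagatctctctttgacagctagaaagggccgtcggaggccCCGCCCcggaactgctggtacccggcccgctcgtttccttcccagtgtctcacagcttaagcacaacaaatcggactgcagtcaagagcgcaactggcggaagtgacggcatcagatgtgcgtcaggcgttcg
Ints7: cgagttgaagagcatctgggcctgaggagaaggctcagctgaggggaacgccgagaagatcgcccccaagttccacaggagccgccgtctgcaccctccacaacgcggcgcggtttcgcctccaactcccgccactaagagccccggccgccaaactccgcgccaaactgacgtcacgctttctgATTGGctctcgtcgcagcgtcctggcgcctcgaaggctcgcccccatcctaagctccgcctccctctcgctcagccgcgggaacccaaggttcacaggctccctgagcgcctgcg
Taf5: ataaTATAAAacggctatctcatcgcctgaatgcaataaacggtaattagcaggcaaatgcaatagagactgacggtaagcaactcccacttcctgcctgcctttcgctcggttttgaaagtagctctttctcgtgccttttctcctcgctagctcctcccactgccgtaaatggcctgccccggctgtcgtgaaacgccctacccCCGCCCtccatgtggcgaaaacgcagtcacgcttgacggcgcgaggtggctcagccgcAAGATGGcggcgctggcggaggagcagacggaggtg
Polr2c: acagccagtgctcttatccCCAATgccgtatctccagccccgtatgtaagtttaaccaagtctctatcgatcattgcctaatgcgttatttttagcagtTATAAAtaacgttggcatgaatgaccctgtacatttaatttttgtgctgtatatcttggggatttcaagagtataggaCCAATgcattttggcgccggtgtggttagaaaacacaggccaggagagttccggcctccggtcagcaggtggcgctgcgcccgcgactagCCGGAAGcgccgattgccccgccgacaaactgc

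Genes that work with these complexes were taken from 9 further lists of 136 genes, of which 134 were tested and 0 passed by edgeR, limma-voom or DESeq2. At an unadjusted p under 0.05 by edgeR, 17 were higher and 2 lower in low-Mn mice (background 6.54% and 5.58%). Their log2 fold change was positive for 88 of 134 (65.7%), with a median of 0.04, and 23 were higher and 3 lower in every low-Mn library (background 8.79% and 8.32%). The medians were 0.07 for 5 TFIIH enzymes, 0.04 for 4 tested relatives and regulators of Tbp and TFIIA, -0.05 for 7 Integrator partners, 0.08 for 11 factors of small nuclear RNA genes, 0.05 for 26 pausing and elongation factors, 0.04 for 33 Mediator genes, 0.01 for 16 subunits of RNA polymerases I and III, 0.04 for 18 mRNA 3′ end processing factors and -0.01 for 14 SAGA subunits.

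The smallest p of these was that of Atxn7, a SAGA subunit, with 43.0 ± 1.41 CPM in low-Mn mice and 34.9 ± 3.10 CPM in normal-Mn mice (log2 fold change 0.30; edgeR, Benjamini-Hochberg adjusted p = 0.0647). Another SAGA gene, Usp22, was lower in every low-Mn library, with 163 ± 4.79 CPM in low-Mn mice and 178 ± 5.11 CPM in normal-Mn mice (log2 fold change -0.13; edgeR, Benjamini-Hochberg adjusted p = 0.256). The SAGA list had 7 positive and 7 negative values. Hexim1, which holds the elongation kinase P-TEFb inactive, had 70.4 ± 0.784 CPM in low-Mn mice and 60.3 ± 2.60 CPM in normal-Mn mice (log2 fold change 0.22; edgeR, Benjamini-Hochberg adjusted p = 0.0754). Mepce, which caps the 7SK RNA that Hexim1 binds, had 46.0 ± 0.922 CPM in low-Mn mice and 40.1 ± 1.97 CPM in normal-Mn mice. Ints6l, the paralog of Ints6, had 105 ± 3.75 CPM in low-Mn mice and 94.8 ± 7.74 CPM in normal-Mn mice. Ppp2r1a, the scaffold of the phosphatase that binds Integrator, was lower in every low-Mn library, with 365, 385 and 379 CPM in low-Mn mice, against 410.0, 426 and 389 CPM in normal-Mn mice (log2 fold change -0.12; edgeR, Benjamini-Hochberg adjusted p = 0.278).

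Pou2f1, an activator of small nuclear RNA genes, had 55.9, 57.9 and 55.5 CPM in low-Mn mice, against 50.4, 46.0 and 53.1 CPM in normal-Mn mice (log2 fold change 0.18; edgeR, Benjamini-Hochberg adjusted p = 0.235). RNAs made from SNAPc promoters were mostly listed at 0 in these polyadenylated libraries. Of 26 entries for small nuclear RNAs and other short noncoding RNAs, 22 were listed at 0 in all 6 libraries, and 3 were tested, with 0 passing. Rn7sk, the 7SK RNA, had 10.3, 11.4 and 10.2 CPM in low-Mn mice, against 9.22, 13.2 and 9.27 CPM in normal-Mn mice, and its diets overlapped (edgeR, Benjamini-Hochberg adjusted p = 0.996). Rmrp was higher in every low-Mn library at a low level, with 1.63, 1.51 and 1.6 CPM, against 0.749, 0.762 and 1.46 CPM in normal-Mn mice. Its log2 fold change was 0.69 ± 0.377 (edgeR, Benjamini-Hochberg adjusted p = 0.483). Rpph1 had a log2 fold change of -0.37 ± 0.519, with overlapping diets.

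Other groups of transcripts are given beside these values, with a background of 0.416% of all tested genes higher and 0.18% lower by the test, and 6.54% and 5.58% at an unadjusted p under 0.05. The summed level of 9 nuclear retained transcripts was 6250 to 6470 CPM in low-Mn mice and 5300 to 5680 CPM in normal-Mn mice. Of these, 1 was higher by the test, 4 were higher and 1 lower at an unadjusted p under 0.05, and 7 were positive (median 0.09). The 1 that passed was Meg3 (2300 ± 28.8 CPM in low-Mn mice and 1790 ± 53.0 CPM in normal-Mn mice; log2 fold change 0.36, edgeR, Benjamini-Hochberg adjusted p = 0.000299). The next largest part of the sum was Malat1, which the paper lists as upregulated by DESeq2. It had 1970 ± 76.9 CPM in low-Mn mice and 1760 ± 43.0 CPM in normal-Mn mice (log2 fold change 0.16; edgeR, Benjamini-Hochberg adjusted p = 0.0932). Oligodendrocyte markers summed to 6700 to 6970 CPM in low-Mn mice and 7150 to 7940 CPM in normal-Mn mice, with 1 of 8 lower by the test, 6 lower at an unadjusted p under 0.05 and 7 negative (median log2 fold change -0.13). Choroid plexus markers summed to 2260 to 2790 CPM in low-Mn mice and 2600 to 3150 CPM in normal-Mn mice, with 2 of 10 lower by the test, 8 lower at an unadjusted p under 0.05 and 9 negative (median -0.26). Most of this sum was Ttr, with 2220 ± 263 CPM in low-Mn mice and 2550 ± 242 CPM in normal-Mn mice. Meningeal markers summed to 1390 to 1670 CPM in low-Mn mice and 1510 to 1690 CPM in normal-Mn mice, with 1 of 8 lower by the test, 3 lower at an unadjusted p under 0.05 and 8 negative (median -0.22). Most of it was Ptgds, with 1220 ± 135 CPM in low-Mn mice and 1280 ± 74.9 CPM in normal-Mn mice. Astrocyte markers summed to 3210 to 3370 CPM in low-Mn mice and 3430 to 3520 CPM in normal-Mn mice, and microglial markers to 79.7 to 85.7 CPM in low-Mn mice and 93.3 to 94.7 CPM in normal-Mn mice, with 0 of 6 passing in each. At an unadjusted p under 0.05, 1 astrocyte marker and 3 microglial markers were lower. In each list 5 of 6 were negative (median -0.08 for astrocytes and -0.16 for microglia). Endothelial markers summed to 90.4 to 96.8 CPM in low-Mn mice and 89.1 to 93.7 CPM in normal-Mn mice, and red blood cell genes to 308 to 712 CPM in low-Mn mice and 362 to 518 CPM in normal-Mn mice, with 0 of 4 passing in each. The part of these differences in the lean of the members was not tested.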

How the data were processed

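RNA-seq was performed on cerebella of 3 low-Mn and 3 normal-Mn mice. Polyadenylated RNA was sequenced on the NovaSeq platform and aligned with STAR, and the submitters' processing notes name FastQC, RSEM, DESeq2 and mm10. The sources used here give no versions. Expected counts per gene were deposited by the authors without normalization, of which 7.12% to 7.74% were not whole. The low-Mn columns carry only a number and were matched to the mice by it, the other 3 columns naming the 35 ppm diet. The 92 spike-in entries were at 0 and left out. The methods call the mice biological replicates, whereas a figure legend calls them technical, and if they were technical the p-values rest on the spread among libraries alone.

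Counts were rounded, filtered with filterByExpr (minimum count 10, total 15), scaled by TMM (factors 0.989 to 1.01) and tested with glmQLFit and glmQLFTest of edgeR 4.0.16 in R 4.3.3, with Benjamini-Hochberg adjustment over 16123 genes at 0.05 (common dispersion 0.00361). Depth was 14548336 to 21277469 counts per library, and the median standard error of the members was 0.0893. Levels are CPM with TMM sizes. Positions and exons are from GENCODE M21 (GRCm38), in which 53620 IDs had a symbol. Sharing is the share of 50-base words found in another gene. Alternatives were RLE and upper quartile factors, no filter and a mean of at least 100 counts, limma-voom (limma 3.58.1), DESeq2 1.42.0 with and without independent filtering, a block on the replicate number, a length and GC trend (splines with 4 degrees of freedom), and leaving out each library. The scripts were tested on simulated data.

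Values in every library are given for members that passed, for the 3 members with the smallest p in Integrator, SNAPc, TFIID, general factors and RNA polymerase II, and for members whose diets did not overlap. Taf1c was added after its values were seen. Of the further lists, up to 2 genes with the smallest p and those that passed could be named. Rn7sk was named outside this rule. The members, the further lists and the marker lists, drawn from general knowledge, were chosen with earlier results of these data known.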

Additional observations from a re-analysis of the deposited data

How the results depend on the processing

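The count of 0 members that passed was the same under 15 of 16 alternatives. Without the filter on low counts, 2 members passed as higher, Taf5 (adjusted p = 0.0361 by edgeR) and Snapc3 (adjusted p = 0.0481), among 424 genes in all (1.57% of those tested). Of 319 values for 20 named members under the alternatives, 0 reversed in sign. These 20 were chosen by small p or non-overlapping diets in the same libraries, which left little room for a reversal. Of the further lists, Atxn7 and Hexim1 passed, as 2 genes, without the filter, with the length and GC trend removed and with the block and trend together, and Atxn7 alone, as 1 gene, with the replicate block.

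Over all genes, 67 passed as higher and 29 as lower. Without the filter these were 218 and 206, with the replicate block and length and GC trend together 103 and 58, and lower genes numbered 63 with the trend alone, 50 with DESeq2 and 17 with limma-voom. Leaving out each library gave 28 to 64 higher and 9 to 29 lower genes. Same-numbered mice deviated little together (correlations 0.0297, -0.0238 and 0.0361), where the other pairs gave -0.0491 to 0.0193. Low-Mn mice 1 and 3 were closest to their own number and low-Mn mouse 2 was not. With so few mice these values cannot settle whether the numbers pair them. The replicate block gave 128 genes, with 0 members among them.

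The median log2 fold change of all members, 0.05, was 0.04 with upper quartile factors and without the filter. It was also 0.04 with the length and GC trend removed, alone or together with the replicate block. When each library was left out it was 0.03 to 0.07. That of Integrator was 0.05 to 0.15 and that of TFIID 0.06 to 0.12. The sign of 2 genes outside the members reversed when 1 library was left out, Drap1 (-0.00051 to 0.13, the lowest without low-Mn replicate 2) and Rpph1 (-0.75 to 0.41, the highest without normal-Mn replicate 2), and the cause was not tested. Low counts limit the least counted members, such as Taf4b, Taf9 and Taf5. For Taf9 the sequence shared with Ak6 also leaves its counts uncertain.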
